A study of Homo sapiens with 16 samples.

Results

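PRRT3, CLIC4, MNX1, C14orf1, FSD1 and L1CAM are 6 of the 23709 genes counted in 16 human RNA sequencing libraries. They were selected on their measured read counts, which moved the same way in 2 or more RNA fractions of HBE cells with FLII knockdown. HBE is labelled as an epithelial lung line, and its knockdown cells stably carried lentiviral short hairpin RNA against FLII, while its control cells are called NC in the labels. H1299, a lung carcinoma line, was transfected with a plasmid for Flag-tagged FLII (FLII overexpression) or with the empty Flag plasmid (vector), both driven by the CMV promoter. Each of these 4 groups gave 1 library of each of 4 kinds of polyA RNA: mRNA, cytosolic RNA, nuclear RNA, and the ribosome-nascent chain complex (RNC) RNA collected by ultracentrifugation, from cells at passage 15 to 18. The files identify the genes as PRRT3 (NM_207351), CLIC4 (NM_013943), MNX1 (NM_005515), C14orf1 (NM_007176), FSD1 (NM_024333) and L1CAM (NM_000425). The labels do not say how many hairpin sequences were used or whether the knockdown cells are 1 clone.

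FLII, flightless I, is an actin-binding protein of the gelsolin family with a leucine-rich repeat domain, which severs and caps actin filaments and also acts as a coactivator of nuclear receptors. The 6 genes share no single pathway. L1CAM is an immunoglobulin-family adhesion molecule of neurons and of some carcinoma cells that binds integrins and neuropilin and is anchored to the cytoskeleton through ankyrins. CLIC4 belongs to the chloride intracellular channel family, soluble proteins that move to membranes and associate with the cortical actin network. FSD1 carries a fibronectin type III domain, a SPRY domain and a COS box, and binds microtubules. MNX1 is a homeobox transcription factor needed for motor neuron identity and pancreas development. C14orf1, now named ERG28, is the human counterpart of a yeast endoplasmic reticulum protein that holds the sterol C4 demethylation enzymes together. PRRT3 is a proline-rich transmembrane protein of little known function.

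The stretches just upstream of the start sites of 4 members are shown. These are PRRT3, called higher in all 3 HBE fractions other than RNC, and the 3 members called lower. FSD1 and L1CAM, not shown, also had folds of 1 sign in those 3 fractions, and each was called higher in 2 of them. The stretches are RefSeq promoters of build GRCh38.p14, taken by gene name, 5′ to 3′ on the gene's own strand. Each ends at the base before the start site. PRRT3 lies at chr3:9952409-9952658 on the minus strand, CLIC4 at chr1:24745197-24745446 on the plus strand, MNX1 at chr7:157010664-157010856 on the minus strand and C14orf1 at chr14:75660877-75661126 on the minus strand. Capitals mark matches to the GC box (GGGCGG or CCGCCC) and to the CCAAT box (CCAAT or ATTGG).
PRRT3: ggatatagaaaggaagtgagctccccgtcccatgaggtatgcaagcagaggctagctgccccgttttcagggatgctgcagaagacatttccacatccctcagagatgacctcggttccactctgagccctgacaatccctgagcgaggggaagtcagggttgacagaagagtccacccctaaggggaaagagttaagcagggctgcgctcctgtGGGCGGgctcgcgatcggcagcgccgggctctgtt
CLIC4: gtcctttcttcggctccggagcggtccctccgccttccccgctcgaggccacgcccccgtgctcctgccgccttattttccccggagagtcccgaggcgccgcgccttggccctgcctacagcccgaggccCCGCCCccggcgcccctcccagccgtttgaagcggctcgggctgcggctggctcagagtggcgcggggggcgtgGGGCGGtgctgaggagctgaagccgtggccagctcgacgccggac
MNX1: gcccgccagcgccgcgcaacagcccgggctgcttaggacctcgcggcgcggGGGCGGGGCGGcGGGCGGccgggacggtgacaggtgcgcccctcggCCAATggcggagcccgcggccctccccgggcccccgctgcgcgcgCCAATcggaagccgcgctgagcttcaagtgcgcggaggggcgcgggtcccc
C14orf1: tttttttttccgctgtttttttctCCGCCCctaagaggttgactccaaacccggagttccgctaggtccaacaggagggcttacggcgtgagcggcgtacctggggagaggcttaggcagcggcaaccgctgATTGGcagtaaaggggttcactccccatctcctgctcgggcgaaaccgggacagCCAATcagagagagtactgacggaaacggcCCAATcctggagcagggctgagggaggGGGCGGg
The MNX1 stretch is the whole 193 bases between the start of MNX1 and that of MNX1-AS1, which is transcribed the other way. The other stretches are 250 bases long.

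GC content of these stretches was 58.4% for PRRT3, 74.8% for CLIC4, 81.3% for MNX1 and 59.6% for C14orf1, against a median of 58.0% over the 250 bases upstream of 35116 RefSeq starts, with quartiles of 46.4% and 68.0%. They held 11, 30, 32 and 16 CpG dinucleotides in the same gene order, against a median of 11 (quartiles 3 and 23). CLIC4 and MNX1 were thus above the upper quartile in both measures. A GC box was found in all 6 members and in 42.6% of all promoters. MNX1 had 3 GC boxes, of which a pair overlaps by 1 base. The CCAAT box was found in MNX1 (2 matches) and C14orf1 (3 matches) and in no other member, against 32.0% of all promoters. No member's stretch held the E box CACGTG, found in 6.34% of promoters, or the AP-1 letters TGANTCA, found in 6.57%, on either strand. For MNX1 and L1CAM, which have 2 entries each, the first listed was used.

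Reads assigned to genes totalled 5943676 to 8344359 in mRNA, 5914489 to 9259569 in cytosol, 6295282 to 8201848 in nuclear and 26711771 to 38514467 in RNC libraries. FLII followed the labels outside RNC, with 450 against 2716 reads in HBE mRNA (FLII knockdown and NC), 236 against 1614 in cytosol and 402 against 2769 in nuclear RNA. Over 15 epithelial markers, summed levels were 11600 to 15539 CPM (reads scaled to the library total) in HBE FLII knockdown and 10685 to 15671 CPM in HBE NC outside RNC. In H1299 they were 94.3 to 319 CPM with FLII overexpression and 98.1 to 134 CPM with vector. Over 8 mesenchymal markers the sums were 13.1 to 861 CPM in HBE FLII knockdown, 12.8 to 54.6 CPM in HBE NC, 1461 to 5938 CPM in H1299 FLII overexpression and 1818 to 6466 CPM in H1299 vector. The highest HBE sum, in the FLII knockdown mRNA library, came mainly from FN1 with 6050 reads and CDH2 with 306, while VIM of the same list was called lower in HBE mRNA, with 23 reads in FLII knockdown and 49 in NC. ZEB2 and TWIST1 were at 0 there.

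The RNC libraries labelled HBE FLII knockdown and H1299 FLII overexpression went against the line in their labels, and FLII did not follow the labels in either RNC pair. By RNC reads, FLII had 941 in the library labelled H1299 FLII overexpression and 14625 in that labelled H1299 vector, and 3494 in that labelled HBE FLII knockdown against 5449 in that labelled HBE NC. Genes typical of one line were compared with their level in that line's control cytosol. The RNC library labelled HBE FLII knockdown held the 242 H1299-typical genes at a median of 47.3% and the 271 HBE-typical genes at 1.99%. The library labelled H1299 FLII overexpression held them at 0.985% and 93.5%. The control RNC libraries matched their labelled line: that labelled HBE NC had 4.22% and 47.4%, and that labelled H1299 vector 39.6% and 0.667%. All 6 members met their selection rule in mRNA, cytosol and nuclear RNA alone, so those fractions are described first and RNC values stand apart.

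Calls of higher or lower required at least 20 reads over a pair of libraries, a fold of 2 or more between them and a 95% interval that left out a fold of 1. With 1 library per group there is no replicate check, so intervals cover counting error only and each fold compares 2 libraries, not the conditions. In RNA from whole cultures, fewer cells that express a gene and less of its RNA per cell cannot be told apart. Since these folds chose the genes, the HBE values below are a description with no test. In HBE nuclear RNA 6 of 6 members were called (3 higher, 3 lower), where 0.873% of all genes tested were called. In cytosol 5 of 6 were called (2 higher, 3 lower), where 1.25% of genes were. In mRNA 4 of the 5 members with enough reads were called (2 higher, 2 lower), where 4.95% of genes were. Of 12143 genes testable in 2 or more of these fractions, 38 or 0.313% were called alike in at least 2 of them, 18 higher and 20 lower, and 7 in all 3. Those 7 are PRRT3 and VILL, called higher, and CLIC4, MNX1, FLII, BPIFA1 and S100P, called lower. VILL, BPIFA1 and S100P are named here after their values were seen.

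**Figure D1:**
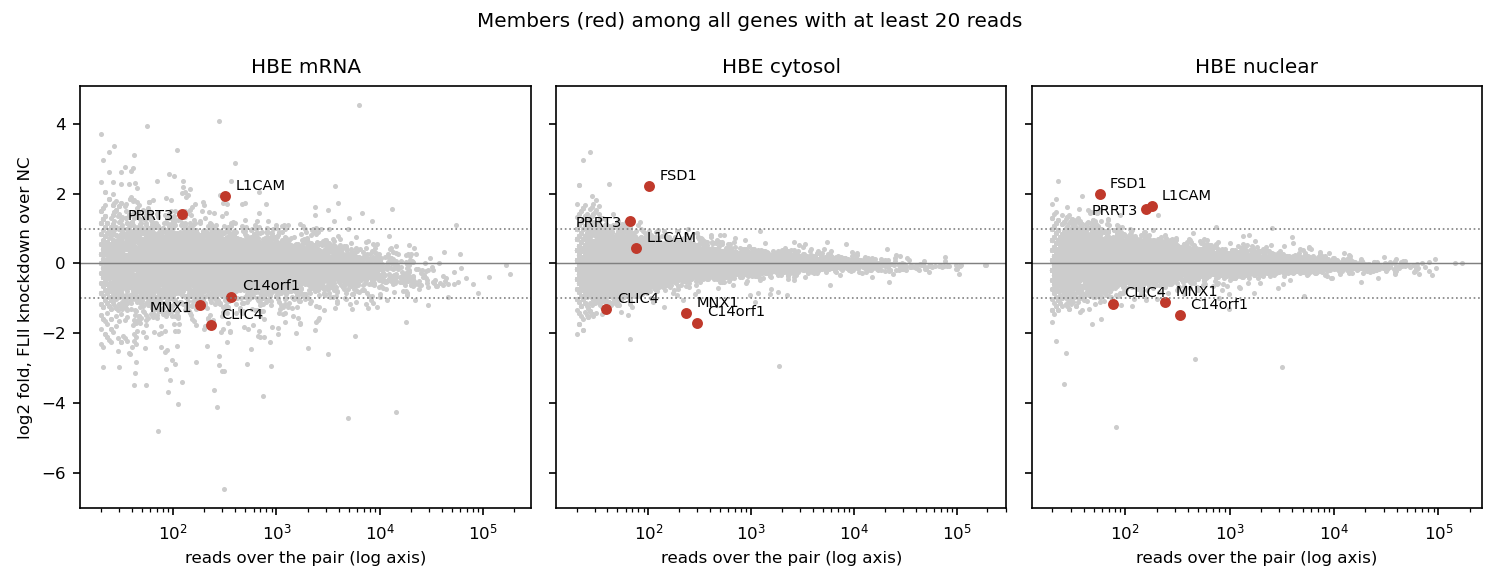
Log2 fold of FLII knockdown over NC (vertical axis) against reads over the pair (horizontal log axis) for every gene with at least 20 reads in HBE mRNA, cytosol and nuclear RNA. Members are red and labelled, other genes grey, and dotted lines mark a fold of 2; CLIC4 in cytosol has the fewest reads of the members drawn, at 12 and 27, and FSD1 in mRNA is not drawn.

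L1CAM had the most reads in mRNA and nuclear RNA among the members called higher with FLII knockdown. In mRNA it had 254 reads (6.73 RPKM, reads scaled to gene length and library total) in HBE FLII knockdown and 67 reads (1.61 RPKM) in HBE NC, a log2 fold of 1.92 (interval 1.54 to 2.34). In nuclear RNA it had 140 reads (3.39 RPKM) in FLII knockdown and 39 (1.06 RPKM) in NC, a log2 fold of 1.64 (1.13 to 2.20). Cytosolic L1CAM stood apart, with 46 reads (1.39 RPKM) in FLII knockdown and 30 (1.01 RPKM) in NC, a log2 fold of 0.44 (−0.25 to 1.16) that was not called. The log2 nuclear fold exceeded the log2 cytosolic one by 1.20 (0.36 to 2.04). L1CAM was the only one of the 6 members called for this difference, and 1.14% of all genes were called for it. Both folds were among those that chose the members, and L1CAM met the rule without cytosol. The choice thus favours such a difference, and nothing is read from this call. On the log2 scale the L1CAM ratio of nuclear to cytosolic RNA was 0.73 (0.24 to 1.24) in HBE FLII knockdown and −0.46 (−1.19 to 0.27) in HBE NC.

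PRRT3 was higher with FLII knockdown in each of HBE mRNA, cytosol and nuclear RNA. It had 89 reads (3.15 RPKM) in FLII knockdown and 33 (1.06 RPKM) in NC mRNA, a log2 fold of 1.43 (0.85 to 2.06). In cytosol there were 48 reads (1.94 RPKM) in FLII knockdown and 18 (0.809 RPKM) in NC, a log2 fold of 1.22 (0.44 to 2.11). In nuclear RNA the counts were 122 reads (3.95 RPKM) in FLII knockdown and 36 (1.31 RPKM) in NC, a log2 fold of 1.55 (1.02 to 2.15). With the deposited RPKM and 1 added, the cytosolic log2 fold was 0.70, under a fold of 2. The 3 intervals overlap, and their lower bounds lie at 0.44 or above. PRRT3 overlaps the antisense gene PRRT3-AS1, and whether reads were assigned by strand is not given in the sources used here. PRRT3-AS1 itself had at most 1 read in each of these 6 libraries.

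FSD1 had the largest cytosolic fold of the 6 members. Cytosol held 86 FSD1 reads (7.07 RPKM) in FLII knockdown and 16 (1.46 RPKM) in NC, a log2 fold of 2.22 (1.48 to 3.13). Nuclear RNA held 47 reads (3.10 RPKM) in FLII knockdown and 10 (0.738 RPKM) in NC, a log2 fold of 1.99 (1.04 to 3.19). In mRNA there were 13 reads (0.937 RPKM) in FLII knockdown and 6 (0.393 RPKM) in NC, fewer than 20 in all. Their log2 fold of 1.06 (−0.37 to 2.81) did not meet the rule, by its reads or by its interval. FSD1 was also the member with the widest gap between the lines, so other genes of H1299 were looked at beside it. In CPM, cytosolic FSD1 in HBE FLII knockdown was at 6.74% of its H1299 vector level and nuclear FSD1 at 6.94%. In HBE NC they were at 1.40% and 1.65%. The median H1299-typical gene was at 0.319% in cytosol and 0.0690% in nuclear RNA of HBE FLII knockdown. In HBE NC it was at 0.122% and 0.109%. Those genes were picked as at least 50 times above both HBE mRNA libraries, FLII knockdown included, so low HBE levels follow from the choice. FSD1 did not meet that rule, and nothing is read from the comparison.

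C14orf1 was the best counted of the members called lower. In cytosol it had 76 reads (7.49 RPKM) in FLII knockdown and 220 (24.2 RPKM) in NC, a log2 fold of −1.70 (−2.10 to −1.32). In nuclear RNA it had 98 reads (7.76 RPKM) in FLII knockdown and 238 (21.1 RPKM) in NC, a log2 fold of −1.47 (−1.83 to −1.13). In mRNA 124 reads (10.7 RPKM) stood against 241 (18.9 RPKM) in NC. That log2 fold of −0.95 (−1.27 to −0.63) falls just short of a fold of 2 although its interval excludes 1. TTLL5, a tubulin glutamylase gene that starts 369 bases from C14orf1 in the other direction (GRCh38.p14), was called in no HBE fraction, with log2 folds of 0.38 in mRNA, −0.17 in cytosol and −0.07 in nuclear RNA.

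MNX1 was called lower in all 3 fractions. The counts in mRNA were 55 reads (3.37 RPKM) in FLII knockdown and 128 (7.11 RPKM) in NC, a log2 fold of −1.20 (−1.69 to −0.74). In cytosol they were 69 reads (4.82 RPKM) in FLII knockdown and 164 (12.7 RPKM) in NC, a log2 fold of −1.41 (−1.85 to −1.01). In nuclear RNA they were 84 reads (4.71 RPKM) in FLII knockdown and 158 (9.90 RPKM) in NC, a log2 fold of −1.10 (−1.505 to −0.714), the member value closest to the threshold among those called. With the deposited RPKM and 1 added, the log2 folds of −0.89 in mRNA and −0.93 in nuclear RNA were under a fold of 2. The noncoding gene across the shared stretch printed above, LOC645249 in the files (MNX1-AS1), was called lower in mRNA only. It had 20 reads in FLII knockdown and 50 in NC mRNA, a log2 fold of −1.29 (−2.14 to −0.54), but 113 and 108 in cytosol and 48 and 31 in nuclear RNA.

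CLIC4 had the largest fold of the lower members in mRNA and the fewest reads in cytosol. In mRNA there were 52 reads (1.56 RPKM) in FLII knockdown and 180 (4.91 RPKM) in NC, a log2 fold of −1.77 (−2.26 to −1.33). Nuclear RNA gave 26 reads (0.715 RPKM) in FLII knockdown and 51 (1.57 RPKM) in NC, a log2 fold of −1.15 (−1.91 to −0.46). Cytosol gave 12 reads (0.411 RPKM) in FLII knockdown and 27 (1.03 RPKM) in NC, a log2 fold of −1.30 (−2.46 to −0.31). The low cytosolic count makes that interval the widest of any CLIC4 value in HBE. With the deposited RPKM and 1 added, CLIC4 was under a fold of 2 in cytosol (−0.52) and nuclear RNA (−0.58). Between fractions the nuclear and cytosolic log2 folds of CLIC4, and those of PRRT3, MNX1, C14orf1 and FSD1, differed by 0.15 to 0.33 in size, and each interval of that difference included 0.

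**Figure D2:**
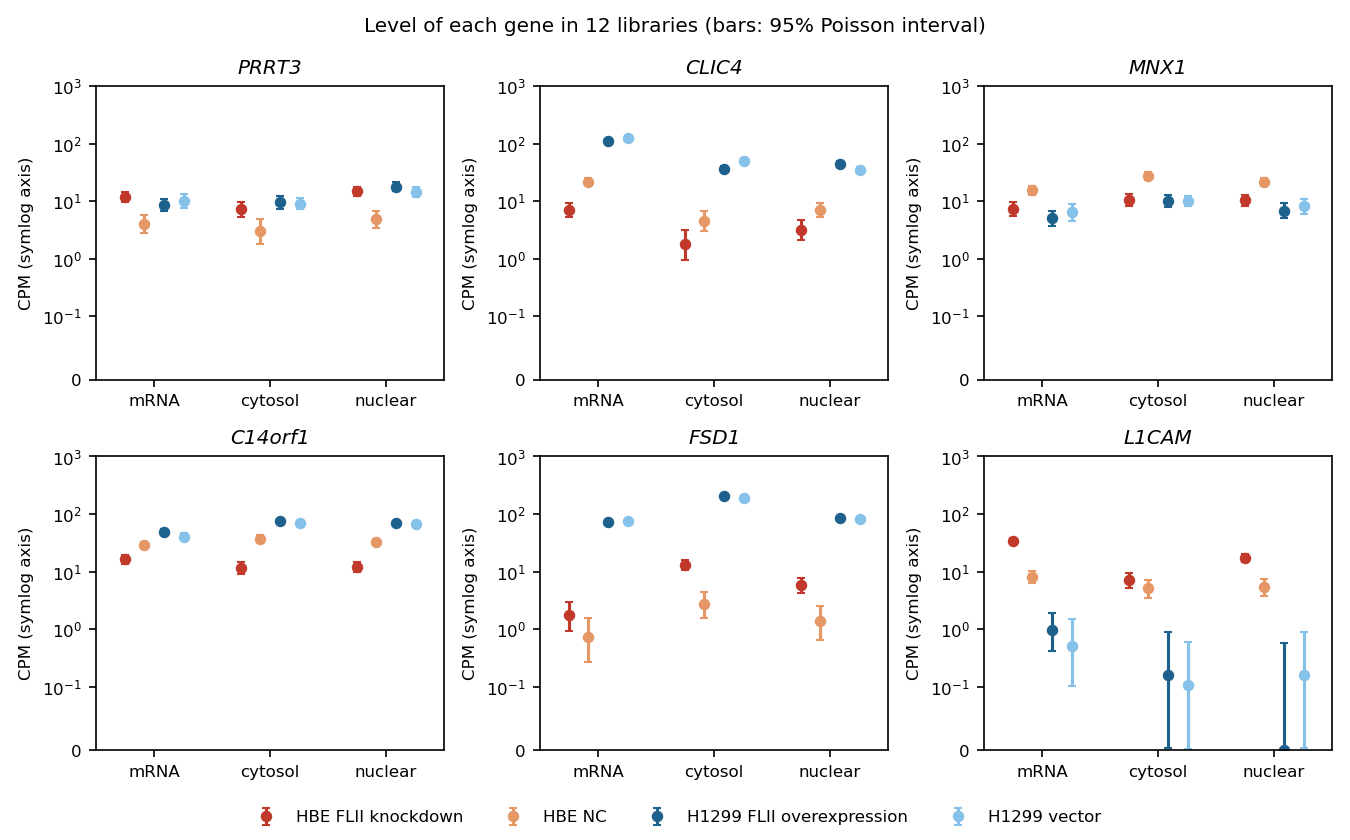
Level of each member in CPM (symlog vertical axis, linear below 0.1) in the mRNA, cytosol and nuclear libraries of HBE FLII knockdown, HBE NC, H1299 FLII overexpression and H1299 vector, 1 library per point, with exact 95% Poisson intervals as bars. FSD1 and CLIC4 lie higher in H1299 than in HBE and L1CAM lower. In HBE, whose counts chose the members, the knockdown and NC intervals overlap for L1CAM and CLIC4 in cytosol and FSD1 in mRNA and are otherwise apart. In H1299 the overexpression and vector intervals overlap for all but CLIC4 in cytosol.

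Set side by side per length, the members differed in level within HBE. In HBE FLII knockdown mRNA the order was C14orf1 at 10.7 RPKM, L1CAM at 6.73, MNX1 at 3.37, PRRT3 at 3.15, CLIC4 at 1.56 and FSD1 at 0.937 RPKM. In HBE NC mRNA it was C14orf1 at 18.9 RPKM, MNX1 at 7.11, CLIC4 at 4.91, L1CAM at 1.61, PRRT3 at 1.06 and FSD1 at 0.393 RPKM. C14orf1 led and FSD1 came last in both libraries, while L1CAM was ahead of MNX1 and CLIC4 in FLII knockdown and behind both in NC. For comparison, FLII was at 13.8 RPKM in HBE FLII knockdown mRNA and 75.3 RPKM in HBE NC mRNA.

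The H1299 libraries give the opposite manipulation of FLII and were not used to choose the members. FLII was higher there with overexpression, by log2 folds of 2.14 in mRNA, 1.66 in cytosol and 1.86 in nuclear RNA. No member was called in any of these 3 fractions: 0 of 5 with enough reads in mRNA, where 0.798% of genes were called, 0 of 5 in cytosol, where 2.68% were, and 0 of 5 in nuclear RNA, where 0.599% were. At such shares a count of 0 among 5 genes does not set the members apart from other genes. L1CAM could not be tested, with 8, 1 and 0 reads in mRNA, cytosol and nuclear RNA of H1299 FLII overexpression and 3, 1 and 1 in H1299 vector. The count of 0 allows up to 0.573 CPM (exact Poisson bound).

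The depth in H1299 gave narrower intervals for FSD1, CLIC4 and C14orf1 than for PRRT3 and MNX1. FSD1 had 598 reads (38.8 RPKM) in FLII overexpression and 446 (40.6 RPKM) in vector mRNA, a log2 fold of −0.05 (−0.23 to 0.13). In cytosol it had 1289 reads (112 RPKM) in FLII overexpression and 1793 (105 RPKM) in vector, a log2 fold of 0.17 (0.06 to 0.27), and in nuclear RNA the log2 fold was 0.01 (−0.17 to 0.18). CLIC4 in H1299 had 936 reads (25.3 RPKM) in FLII overexpression and 732 (27.8 RPKM) in vector mRNA, a log2 fold of −0.12 (−0.26 to 0.02). Its log2 folds of opposite sign in cytosol, −0.41 (−0.65 to −0.18), and nuclear RNA, 0.31 (0.06 to 0.58), each excluded 0 and were both under a fold of 2. C14orf1 in H1299 had 410 reads (31.9 RPKM) in FLII overexpression and 240 (26.2 RPKM) in vector mRNA, a log2 fold of 0.30 (0.07 to 0.54), with 0.21 (0.03 to 0.38) in cytosol and 0.04 (−0.16 to 0.24) in nuclear RNA. PRRT3 and MNX1 had log2 folds between −0.32 and 0.27, and every one of their 6 intervals included 0. In the H1299 FLII overexpression cytosol library 9 of 10 tested epithelial markers were called higher, and HBE-typical genes had a median of 2.34%, against 0.254% in vector cytosol. The part of this in the cytosolic values of the members was not tested.

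**Figure D3:**
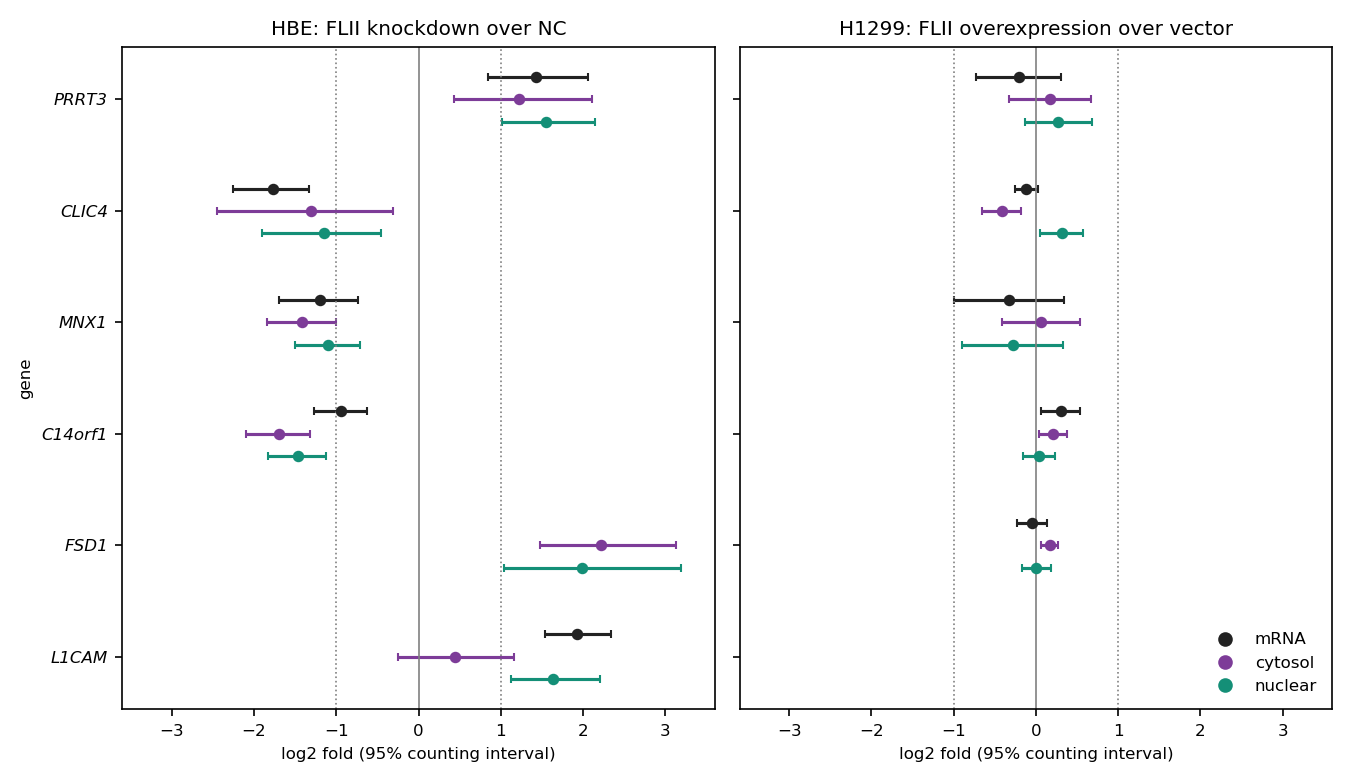
Log2 folds of the members (vertical axis) with 95% counting intervals, FLII knockdown over NC in HBE (left panel) and FLII overexpression over vector in H1299 (right panel), in mRNA, cytosol and nuclear RNA. Dotted lines mark a fold of 2; no H1299 point passes them, while all HBE points but C14orf1 in mRNA and L1CAM in cytosol do, and pairs with fewer than 20 reads are not drawn.

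The difference between the log2 fold in HBE and that in H1299 was also computed, as a description only: the HBE fold chose the members and is part of this difference, so the counts of calls here follow from the choice. For C14orf1 it was −1.25 (−1.63 to −0.86) in mRNA, −1.90 (−2.32 to −1.49) in cytosol and −1.51 (−1.90 to −1.12) in nuclear RNA. PRRT3 differed by 1.64 (0.88 to 2.40) in mRNA, 1.05 (0.13 to 1.97) in cytosol and 1.29 (0.62 to 1.95) in nuclear RNA. FSD1 differed by 2.06 (1.28 to 2.83) in cytosol and 1.98 (0.98 to 2.98) in nuclear RNA. C14orf1 and PRRT3 were thus called in every fraction and FSD1 in both that could be tested. CLIC4 differed by −1.65 (−2.12 to −1.19) in mRNA and −1.46 (−2.19 to −0.74) in nuclear RNA, and by −0.89 (−1.90 to 0.12) in cytosol, which was not called. MNX1 differed by −1.48 (−2.09 to −0.86) in cytosol, with smaller values of −0.88 (−1.66 to −0.10) in mRNA and −0.82 (−1.52 to −0.13) in nuclear RNA that were not called. In all 3 of 4 members tested were called in mRNA, 4 of 5 in cytosol and 4 of 5 in nuclear RNA, where 4.77%, 4.25% and 1.44% of all genes were called, and nothing is read from these counts.

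Most members differed between the control cells of the lines, H1299 vector and HBE NC. In each of mRNA, cytosol and nuclear RNA 5 of 6 were called (3 higher in H1299 and 2 lower), where 43.6%, 48.9% and 45.3% of all genes were called. FSD1, with log2 folds of H1299 vector over HBE NC of 6.30 in mRNA, 5.66 in cytosol and 5.61 in nuclear RNA, had 446 reads in H1299 vector and 6 in HBE NC mRNA. CLIC4 had log2 folds of 2.23, 2.98 and 2.06 in the same fraction order, and PRRT3 of 1.06, 1.08 and 1.30, of which the first and second were 0.96 and under a fold of 2 with 5 reads added. MNX1 was lower in H1299 vector, by log2 folds of −1.53, −1.91 and −1.64. L1CAM was lower too, with 3, 1 and 1 reads in H1299 vector and log2 folds of −4.07 (−6.58 to −2.66), −5.24 (−11.37 to −3.43) and −4.74 (−10.65 to −2.74). With the deposited RPKM and 1 added, L1CAM was at −0.976 in cytosol and −0.996 in nuclear RNA, both under a fold of 2. C14orf1 was not called, with log2 folds of 0.20, 0.43 and 0.79, though with total counts the nuclear one was 1.03 and was called.

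Read against the line difference, 3 members were nearer to their H1299 vector level in HBE FLII knockdown than in HBE NC. The other 3 were farther from it. The HBE folds that chose the members help set this split, so it is a description only. No share over all genes was computed, and nothing is read from the counts. PRRT3 in HBE FLII knockdown was at 81.3% of its H1299 vector level in cytosol CPM and 103% in nuclear CPM, against 34.0% in both fractions of HBE NC. MNX1 was at 103% in cytosol and 126% in nuclear RNA of HBE FLII knockdown, against 273% and 266% in HBE NC. FSD1 was nearer too but far below H1299, as given above. CLIC4 was at 3.62% in cytosol and 9.15% in nuclear RNA of HBE FLII knockdown, against 9.07% and 20.1% in HBE NC. C14orf1 was at 16.6% and 18.0% in HBE FLII knockdown, against 53.5% and 49.0% in HBE NC. C14orf1 was not called between the control cells of the lines. L1CAM, nearly without reads in H1299, was the third of those farther away. It had 1 read in each of H1299 vector cytosol and nuclear RNA, and its cytosolic fold in HBE was not called.

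The members also differed in how their RNA was divided between nucleus and cytosol. With TMM scaling FSD1 was called lower in nuclear than in cytosolic RNA in each of the 4 conditions, with log2 ratios of −1.73 (−2.29 to −1.22) in HBE FLII knockdown, −1.47 (−2.83 to −0.30) in HBE NC, −1.82 (−1.97 to −1.68) in H1299 FLII overexpression and −1.56 (−1.70 to −1.42) in H1299 vector. MNX1 was called lower in nuclear RNA of H1299 FLII overexpression, at −1.09 (−1.69 to −0.53), with −0.59 in HBE FLII knockdown, −0.90 in HBE NC and −0.65 in H1299 vector. With total counts the FSD1 ratio in HBE NC was −0.95 and the MNX1 ratio in H1299 FLII overexpression −0.56, both under a fold of 2. With the deposited RPKM these were −0.50 and −0.44, and FSD1 in HBE FLII knockdown was −0.98. Total counts put L1CAM at 1.28 and PRRT3 at 1.02 in HBE FLII knockdown, past a fold of 2. With TMM the calls were 1 of 6 members in HBE FLII knockdown, where 41.5% of genes were called, 1 of 6 in HBE NC (39.8% of genes), 2 of 5 in H1299 FLII overexpression (36.2%) and 1 of 5 in H1299 vector (27.5%). C14orf1 ran from −0.73 to −0.40 and PRRT3 from 0.15 to 0.47 over the 4 conditions. In H1299 the nuclear log2 fold minus the cytosolic one was called for 0 of 5 members, where 5.06% of genes were called, with CLIC4 nearest at 0.73 (0.38 to 1.07). The direction of small ratios depended on scaling: with total counts C14orf1 was at 0.05 in HBE FLII knockdown and CLIC4 at 0.30 in H1299 FLII overexpression, against −0.51 and −0.24 with TMM.

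**Figure D4:**
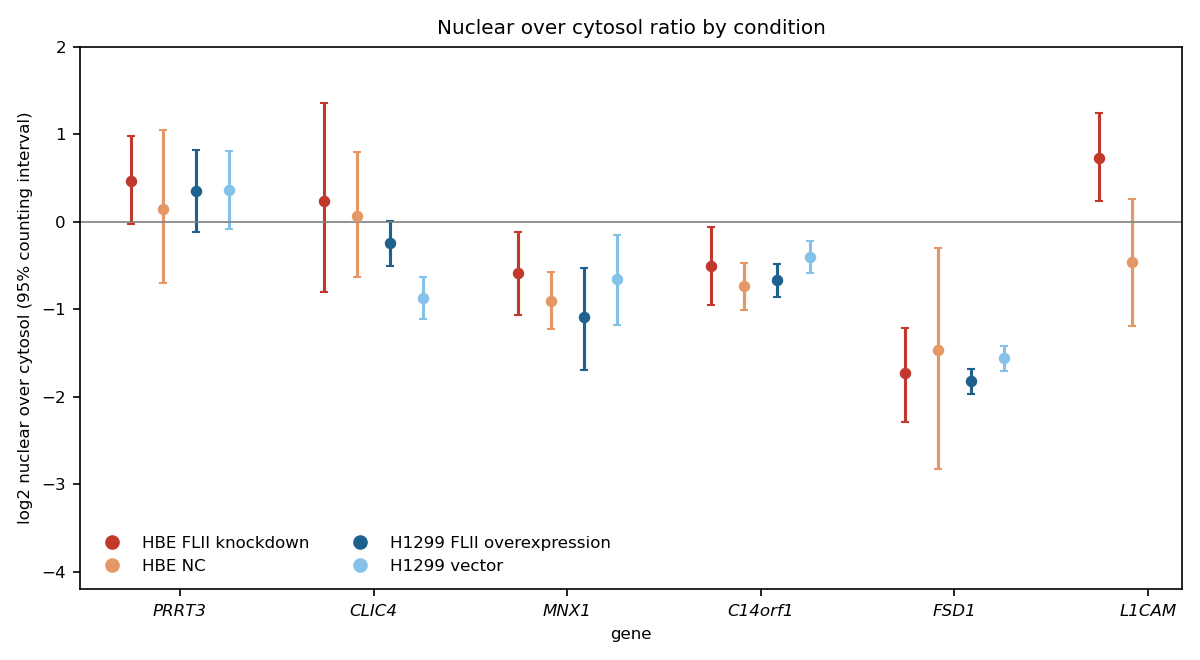
Log2 ratio of nuclear to cytosolic RNA (vertical axis, TMM scaled) of each member in HBE FLII knockdown, HBE NC, H1299 FLII overexpression and H1299 vector, with 95% counting intervals. FSD1 lies lowest in each condition, between −1.82 and −1.47, and L1CAM is at 0.73 in HBE FLII knockdown and −0.46 in HBE NC; its H1299 ratios rest on fewer than 20 reads and are not drawn.

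Between the RNC libraries labelled HBE FLII knockdown and HBE NC 4 of 6 members were called, all higher, where 30.6% of genes were called. FSD1 had 3107 RNC reads under the label HBE FLII knockdown and 125 under the label HBE NC, a log2 fold of 5.34 (5.09 to 5.62). CLIC4 and C14orf1, lower with FLII knockdown in the other HBE fractions, were higher in this pair, with log2 folds of 1.98 (1.80 to 2.17) and 1.41 (1.27 to 1.56). PRRT3 had a log2 fold of 2.10 (1.84 to 2.38) in it. MNX1 at −0.91 (−1.27 to −0.56) and L1CAM at −0.88 (−1.41 to −0.38) were not called, though both were with total counts (−1.26 and −1.23). Each of the 6 signs is that of H1299 vector over HBE NC in the other fractions.

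Between the RNC libraries labelled H1299 FLII overexpression and H1299 vector 6 of 6 members were called (2 higher, 4 lower), where 49% of genes were called. FSD1 had 170 reads in the library labelled FLII overexpression and 4540 in that labelled vector, a log2 fold of −4.98 (−5.22 to −4.77). CLIC4 had a log2 fold of −3.56 (−3.94 to −3.22), C14orf1 of −2.21 (−2.39 to −2.04) and PRRT3 of −1.10 (−1.32 to −0.89), which was −0.89 with total counts and under a fold of 2. MNX1 at 1.59 (1.17 to 2.04) and L1CAM at 1.20 (0.32 to 2.22) were called higher. Each of the 6 signs is opposite to that in the pair of libraries labelled HBE. Counting RNC as a fraction under the labels, 238 genes in place of 38 were called alike in 2 or more of the HBE fractions and 14 in 3 or more. No direction under FLII knockdown or overexpression is drawn from these libraries.

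**Figure D5:**
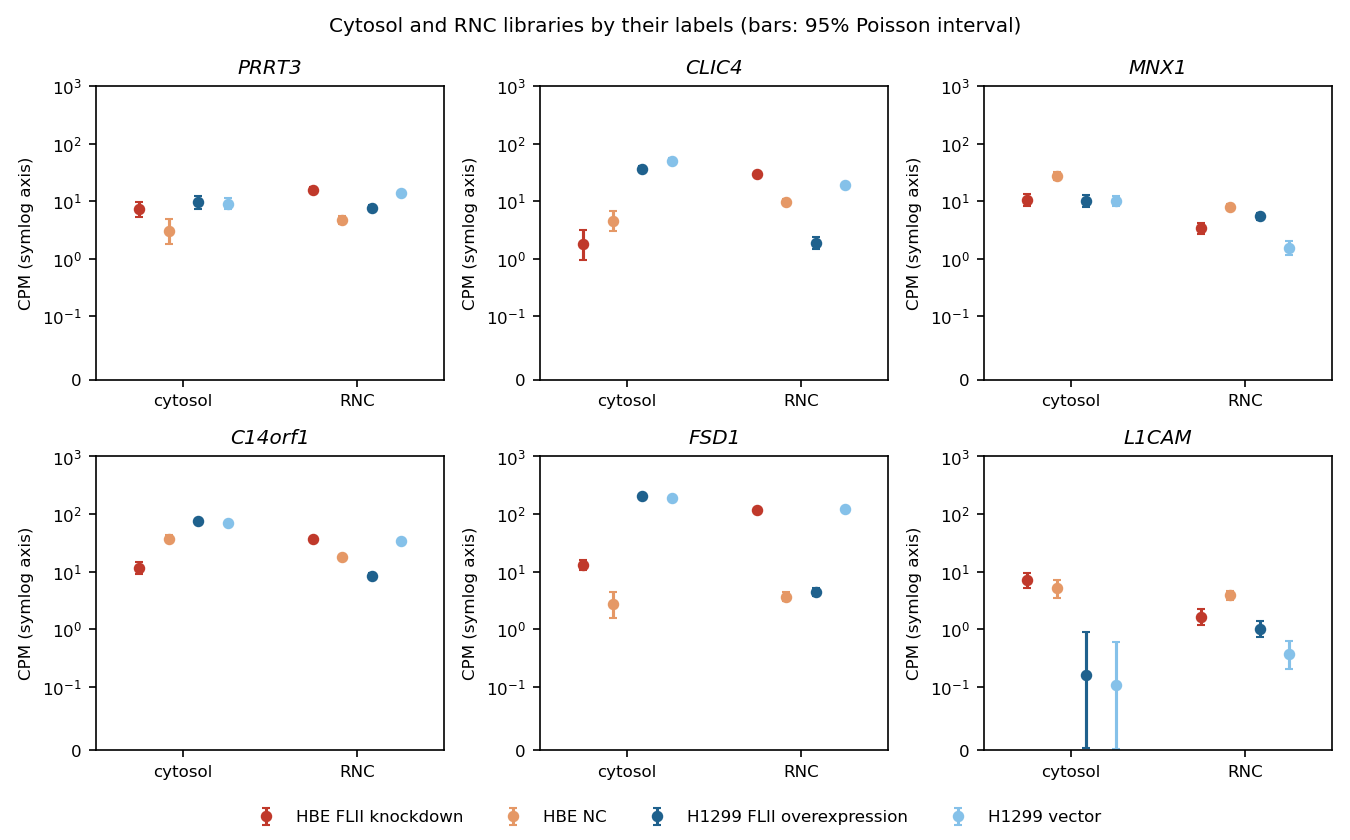
Level of each member in CPM (symlog vertical axis, linear below 0.1) in cytosol and RNC libraries by their labels, with exact 95% Poisson intervals. FSD1 in RNC is near 116 CPM in the library labelled HBE FLII knockdown and 121 CPM in that labelled H1299 vector, and near 3.65 CPM in that labelled HBE NC and 4.41 CPM in that labelled H1299 FLII overexpression, an arrangement that cytosol does not show.

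Genes of the same families and pathways were looked up in lists chosen with earlier results of these data known. For L1CAM, 14 of 19 genes of the L1 family and its partners had enough reads in HBE mRNA. Of these 1 was called, where 4.95% of all genes were. The called gene was the fibronectin receptor chain ITGA5, lower at 285 reads in FLII knockdown and 917 in NC (log2 fold −1.67, −1.87 to −1.48). The list's median log2 fold was −0.0030 in HBE mRNA, against 0.01 over all genes. None of the list was called in HBE cytosol or nuclear RNA. There ITGA5 had the other sign, with log2 folds of 0.57 (0.18 to 0.98) in cytosol and 0.36 (0.12 to 0.59) in nuclear RNA. In H1299 mRNA the coreceptor NRP1 was called lower, at 18 reads in FLII overexpression and 30 in vector (−1.18, −2.14 to −0.32). It was 1 of 15 listed genes tested there, where 0.798% of all genes were called.

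For CLIC4, the related CLIC3 was called lower in HBE mRNA, at 20 reads in FLII knockdown and 50 in NC (−1.29, −2.14 to −0.54). It was 1 of 2 tested family members, where 4.95% of all genes were called. In HBE cytosol CLIC3 was not called, at 12 reads in FLII knockdown and 13 in NC (−0.28, −1.55 to 0.96). In HBE nuclear RNA it had too few reads. The 4 genes for ezrin, radixin, moesin and their adaptor, which link membranes to cortical actin, were called in none of the 6 HBE and H1299 pairs. Among relatives of FSD1 with a COS box, TRIM55, a muscle microtubule-binding ligase, was called lower in HBE mRNA (14 and 40 reads in FLII knockdown and NC, −1.47, −2.50 to −0.60). MID2, another microtubule-associated ligase, was called higher in HBE nuclear RNA (26 and 9 reads, 1.29, 0.20 to 2.62). They were 1 of 5 listed genes tested in HBE mRNA and 1 of 3 in HBE nuclear RNA. There 4.95% and 0.873% of all genes were called, in that order. Both calls rest on few reads. Of the 15 motor neuron and pancreas transcription factors listed beside MNX1, 3 had enough reads in HBE mRNA, 1 in cytosol and 2 in nuclear RNA, with 7, 6 and 4 in H1299, and 0 of these were called. Of the 3 other PRRT genes 1 or 2 had enough reads in each pair, and 0 were called. Over all genes 0.599% to 4.95% were called in these 6 pairs. At such shares a count of 0 in lists this short does not set them apart.

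For C14orf1, the list held the enzymes that its yeast counterpart tethers. MSMO1, the sterol C4 methyl oxidase, was called higher in HBE mRNA at 883 reads in FLII knockdown and 413 in NC (log2 fold 1.11, 0.94 to 1.28), in the pair where C14orf1 was at −0.95. The other 2 genes of this complex were not called. Of 20 other cholesterol synthesis genes 2 were called, both higher in HBE mRNA. HMGCS1, which makes the precursor of mevalonate, had a log2 fold of 1.10 (0.92 to 1.28), and INSIG1, a sterol sensor of the endoplasmic reticulum, of 1.21 (0.99 to 1.43). In HBE mRNA 4.95% of all genes were called. The median log2 fold was 0.54 over these 20 genes in HBE mRNA, against 0.01 over all genes, −0.05 over the 19 tested in cytosol and −0.03 over 20 in nuclear RNA.

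Likeness of pattern over the 12 mRNA, cytosol and nuclear libraries was measured as the root mean square difference of log2 CPM, centred within each line, among 13741 genes. The nearest gene to MNX1 was the pseudouridine synthase gene TRUB2, at 0.21, followed by C14orf1 at 0.31 and the carbonyl reductase gene CBR1 at 0.34. The median over all genes was 1.01. TRUB2 was called lower in HBE mRNA (−1.16), with −0.87 in cytosol and −0.84 in nuclear RNA. MNX1 was in turn the nearest gene to C14orf1, followed by TCEA3 and TWIST1, which had 7 or fewer reads in each of these HBE libraries. MNX1 and C14orf1 were chosen as lower in HBE libraries used here, so their nearness follows in part from the choice. For PRRT3 the nearest were KIAA1656 at 0.32, the NAD synthesis gene NMNAT1 at 0.33 and TRAF3IP2-AS1 at 0.35. For CLIC4 they were the semaphorin receptor gene PLXND1 at 0.33, the transcription factor gene GLIS3 at 0.35 and the sulphate donor synthase gene PAPSS2 at 0.35. FSD1 had ENHO at 0.46, HPCA at 0.49 and FIBCD1 at 0.52. Of these genes GLIS3 had 6 or fewer reads and HPCA 2 or fewer in each of the HBE libraries. PAPSS2 had 3 reads in FLII knockdown and 4 in NC in HBE cytosol, and ENHO 5 and 2 in HBE mRNA. With the RNC libraries added, 2 of the 3 nearest genes of MNX1 and 1 of the 3 of FSD1 stayed among the nearest, and 0 for PRRT3, CLIC4 and C14orf1.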

How the data were processed

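PolyA RNA of 2 lines was sequenced in 16 libraries, 1 per group, and the titles gave the groups. The deposited files list 23709 RefSeq genes with their length, read count and RPKM, per the file headers, and variants of 1 gene share an entry. The authors' read counts are whole numbers, and the deposited RPKM is scaled to gene length and library total. The submitters' processing notes name the builds GRCh37 and hg19. Not given in the sources used here are the aligner, the counter, any use of strand and the way nuclei and cytosol were separated. RefSeq promoters are of GRCh38.p14, and no coordinates were converted.

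The 2 libraries of each pair were scaled with TMM (edgeR 4.0.16, R 4.3.3), 0.5 reads were added, and 20 reads over a pair were the minimum for a gene. Intervals are exact conditional binomial (Clopper-Pearson) at 95%, and for differences of log2 folds they come from inverse counts. With 1 library per group no p-value is given. Counts do not show PCR duplicates, and intervals cover counting error only. Line-typical genes had at least 5 CPM in both mRNA libraries of one line, 50 times above both of the other (0.05 CPM added), and at least 5 CPM in the control library they are set against. Members were left out of them. Motifs were counted on both strands, overlaps included. The calls and intervals were tried on simulated counts with counting error only and known library totals. TMM scaling and spread between cultures were not part of that trial.

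The members and lists were chosen with earlier results of these data known. All members are named, with list genes called in a mRNA, cytosol or nuclear pair, genes overlapping or divergent from a member, and the 3 genes nearest in pattern with at least 100 reads over 12 libraries. The genes nearest to L1CAM are not reported here. Alternatives were total counts, DESeq2 1.42.0 size factors, at least 1 or 100 reads, 5 reads added, the deposited RPKM with 1 added, and RNC left out or added. The difference between the lines' folds was added after the data were seen.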

Additional observations from a re-analysis of the deposited data

Results flagged for a closer look

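C14orf1 was the only member whose log2 fold had one sign in every HBE pair and the other sign in every H1299 pair outside RNC. FLII knockdown over NC gave −0.95 in HBE mRNA, −1.70 in HBE cytosol and −1.47 in HBE nuclear RNA. FLII overexpression over vector gave 0.30 in H1299 mRNA, 0.21 in H1299 cytosol and 0.0401 in H1299 nuclear RNA, none of which reached a fold of 2, and the nuclear interval (−0.16 to 0.24) includes 0. With 1 library per group this difference between the lines was not tested against replicates, and the HBE values chose the gene.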

How the results depend on the processing

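No paired analysis was possible because each group has 1 library and no group shares more than 1 replicate number with another. No member changed direction in HBE mRNA, cytosol or nuclear RNA under any alternative run. The deposited RPKM with 1 added, which shrinks low values by construction, moved most: CLIC4 to −1.20 in HBE mRNA, −0.52 in cytosol and −0.58 in nuclear RNA, MNX1 to −0.89 in mRNA and −0.93 in nuclear RNA, PRRT3 to 0.70 in cytosol and L1CAM to 1.09 in nuclear RNA. CLIC4 and MNX1 thus each missed a fold of 2 in 2 of these 3 fractions. With the RPKM neither would be called alike in 2 or more of them. In HBE cytosol 3 members were called with the RPKM and 3 with at least 100 reads, in place of 5. The other 255 recomputed log2 folds of members outside RNC and counts of members called, RNC counts included, stayed on the same side of the threshold or within 1.5 times. The filters of at least 1 or 100 reads leave a log2 fold as it was, so the folds counted under them could not move. Members with fewer than 100 reads over a pair gave no fold under that filter.

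Counts over all genes depended on the filter. Genes called in HBE mRNA ranged from 254 to 755 (main 625), in cytosol from 9 to 227 (136) and in nuclear RNA from 14 to 175 (108). In H1299 they ranged from 4 to 168 in mRNA (104), 67 to 479 in cytosol (336) and 4 to 141 in nuclear RNA (78). For RNC the range was 2565 to 5408 in the pair labelled HBE (4496) and 3841 to 7624 in that labelled H1299 (6956). Total counts put the median of all genes in HBE mRNA at 0.14, against 0.01 with TMM, and the share of calls that were higher at 57.9%, against 40.8%. In the RNC pair labelled HBE they put it at −0.44, against −0.09, and the share at 37.7%, against 61.7%. Under total counts MNX1 and L1CAM passed a fold of 2 in that RNC pair, at −1.26 and −1.23, while PRRT3 missed it in the pair labelled H1299, at −0.89. In nuclear over cytosolic RNA, total counts ended the calls of FSD1 in HBE NC (−0.95) and MNX1 in H1299 FLII overexpression (−0.56).

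Depth limits CLIC4 in HBE cytosol, FSD1 in HBE mRNA and L1CAM in H1299 most. No replicate bounds the spread between cultures of one group.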
